A study of Mus with 4 samples.

Results

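The Gadd45 family and further genes that p53 is known to induce were followed in a murine podocyte cell line given the active form of the transcription factor OASIS. The group was formed by gene symbol, with earlier results of these data known. It holds Gadd45a, Gadd45b, Gadd45g, Cdkn1a, Mdm2, Ccng1, Bax, Bbc3, Trp53inp1 and Sesn1, which are 10 of the 26893 gene symbols on the array and are read by 16 of its 56605 probes. Of the 16 probes, 15 were well above background in at least 1 group and were tested, so that each of the 10 genes had at least 1 tested probe. Only Gadd45a, with 2 probes, had one that was not.

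All samples came from 1 immortalised line that had been differentiated for 10 to 14 days at 37 °C in the absence of interferon-γ. Lines of this type commonly carry a temperature-sensitive large T antigen of SV40, a protein that binds p53, but the labels do not name the immortalising gene. Both groups took up a lentivirus for 24 h at a multiplicity of infection between 200 and 500, with polybrene at 8 μg/mL and 10% serum. In the 2 control samples the virus carried Venus, a fluorescent protein, and in the 2 OASIS samples it carried the active form of Oasis/Creb3l1. RNA was taken at 48 h. The labels do not say that the samples of a group were separate cultures, so that the p-values measure the spread between these samples, which may be technical.

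p53 is a transcription factor that accumulates, mainly through stabilisation of the protein, when DNA is damaged or a cell is otherwise stressed. It switches on genes that halt the cell cycle, repair DNA or start apoptosis, and also genes such as Mdm2 that turn p53 off again. The GADD45 proteins are small, stress-induced nuclear proteins that bind the kinase MAP3K4 (MTK1), upstream of p38 and JNK, as well as PCNA and CDK1, and only some of their induction runs through p53. OASIS belongs to the CREB/ATF family and is held in the membrane of the endoplasmic reticulum until its N-terminal domain is cleaved off and enters the nucleus. Mature podocytes are postmitotic cells in which inhibitors of cyclin-dependent kinases are normally present.

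The 4 samples were read on 4 arrays of 1 slide, in 1 colour. Between 33938 and 34418 of 59305 spots per array were well above background, and none was saturated. Over all probes, which do not count as replicates, the Venus pair correlated at 0.997 (Pearson's r), the OASIS pair at 0.995 and arrays of different groups at 0.978 or less. The single Creb3l1 probe gave a log2 fold change of -0.17 (limma adjusted p = 0.298), and its place on the transcript is not given in the sources used here, so that it does not check the labels. Of the 7 podocyte markers tested, 2 were higher with OASIS, Wt1 (log2 fold change 4.62, by 1 of 2 probes) and Cd2ap (1.09, by 1 of 3), whereas Nphs1 and Tcf21 did not pass the filter. Of 11 markers of other kidney cells, 7 were tested and 1 was higher, Lrp2 (1.62, with 2 of 5 probes past the threshold). Kdr, Cdh5, Slc34a1 and Umod did not pass the filter. Over the whole array, 6.22% of genes were higher by the same threshold. The part of these markers in the results that follow was not tested.

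Values are normalized log2 intensities, which are given relative to the 75th percentile of the array and can be compared between arrays for 1 probe but not between probes. A gene was counted as changed by its brightest probe when the fold was over 2.0 or under 0.5 and the limma p, adjusted over all 31590 probes tested, was under 0.1, as in the threshold of the study. By this rule 1 of the 10 genes fell, Gadd45a, against 1.85% of the 16313 genes tested, and 0 rose, against 6.22%. No member was 2-fold higher, so that the methods' t-test, which takes the same folds, could call none higher either. An unadjusted limma p under 0.05 was reached by 5 of 10 members, Gadd45g and Ccng1 on the higher side, and by 41% of all genes. With no fold limit, 5 of 10 members had an adjusted p under 0.1, as had 36.8% of all genes. The groups did not overlap for 9 of 10, and for 70.9% of all genes. The median log2 fold change was -0.22 over the members and -0.056 over all genes. Beyond Gadd45a, a second, dimmer probe passed for Mdm2 and for Trp53inp1, so that 3 of the 15 tested probes were called, all lower. Over the whole array 8.36% of probes were called and 2.47% were called lower. Counted by any probe, 3 of 10 members were lower, where 3.62% of all genes were.

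**Figure D1:**
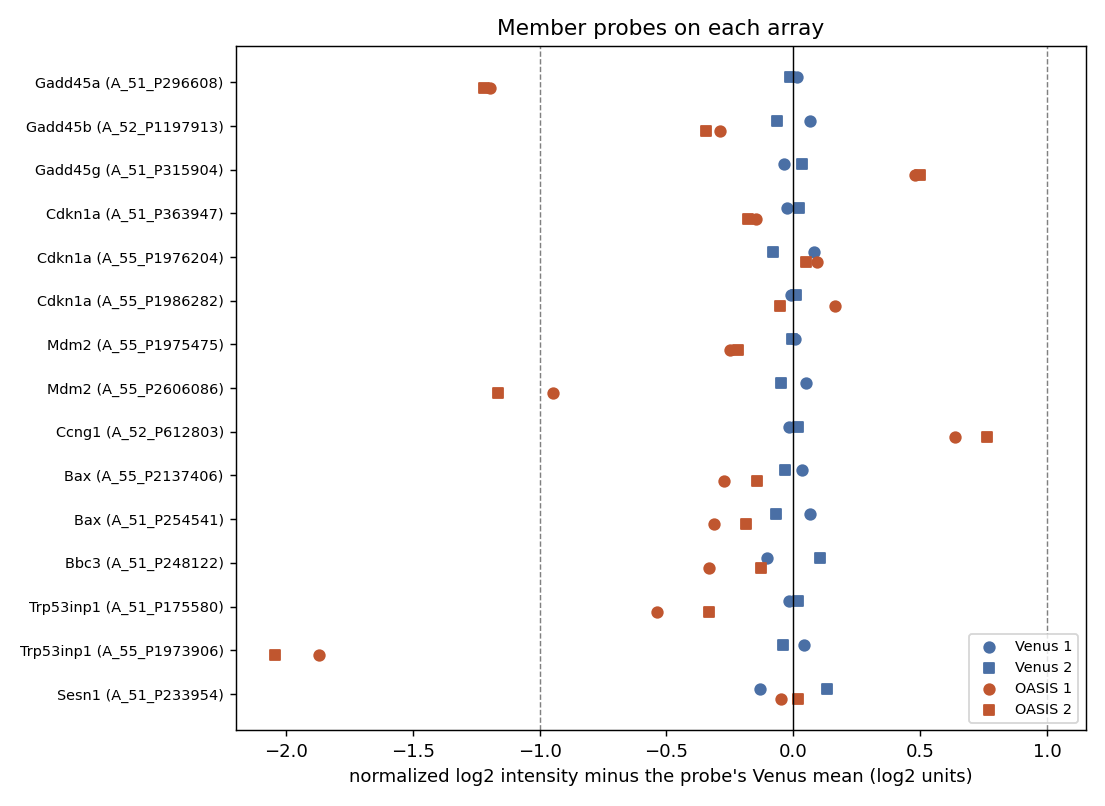
Normalized log2 intensity of each tested probe of the 10 genes on each array, as the difference from the mean of the 2 Venus arrays of that probe (log2 units). Blue points are Venus arrays, red points are OASIS arrays, circles and squares are replicates 1 and 2, and dashed lines mark a 2-fold difference. Both OASIS points lie beyond the line for Gadd45a and the dimmer Trp53inp1 probe, and 1 of 2 for the dimmer Mdm2 probe.

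Of the 3 Gadd45 genes, only Gadd45a, which is induced by p53 as well as by p53-independent stress pathways, passed both limits, and it fell. Gadd45g, a family member often induced by cytokines, had a log2 fold change of 0.49, and Gadd45b, a target of NF-κB and TGF-β signalling, one of -0.32. Gadd45a lies on chromosome 6 in band qC1. Its probe A_51_P296608 had normalized log2 intensities of 2.08 and 2.05 with Venus, against 0.87 and 0.85 with OASIS. The arrays of each group were almost equal, and the groups were 1.18 apart at their nearest arrays. The log2 fold change was -1.21 (adjusted p = 0.00585 by limma, standard error 0.098), which is 2.31-fold lower with OASIS, with a 95% interval of the log2 fold change from -1.46 to -0.95. By quantitative PCR the study reported lower Gadd45a in podocytes treated with lipopolysaccharide. In kidneys of so-treated mice lacking OASIS in podocytes, it reported no rise of Gadd45a over control mice. The study picked Gadd45a for its heat map from these same arrays, so that its fall here is not independent evidence. It passed the threshold under each of the 15 alternatives that follow single probes, with log2 fold changes between -1.23 and -1.16. The second Gadd45a probe, A_55_P2617034, is annotated to another transcript of the gene, known from Ensembl, and was not well above background on any array, so that it gives no fold.

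Gadd45b, on chromosome 10 in band qC1, has 1 probe, with 5.76 and 5.63 with Venus, against 5.41 and 5.35 with OASIS. The groups did not overlap, but the nearest arrays were only 0.22 apart. Its log2 fold change of -0.32 (adjusted p = 0.0974 by limma, standard error 0.11) is a 1.24-fold difference, short of the fold limit, and its adjusted p lay between 0.0261 and 0.459 under the alternatives. Gadd45g, on chromosome 13 in band qA5, had 6.89 and 6.96 with Venus and 7.40 and 7.42 with OASIS. Both OASIS arrays were higher by more than the spread within either group. This is a log2 fold change of 0.49 (adjusted p = 0.0324 by limma, standard error 0.10), or 1.41-fold, with an interval of the fold from 1.17 to 1.69 that lies wholly below 2. Its adjusted p was 0.221 without Venus replicate 1 and 0.170 without Venus replicate 2.

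The differences between the Gadd45 genes were tested directly, since one gene past a threshold and another short of it does not show that they differ. For each array the log2 value of one gene was subtracted from that of the other, and the group difference of these values was fitted with limma. The fit also held 10811 pairs of probes of 1 gene, each its brightest tested probe and another tested probe. The comparison was added once the values were known. The change of Gadd45a was 1.70 below that of Gadd45g on the log2 scale (-1.70, adjusted p = 0.00996 by limma, standard error 0.11). It was 0.89 below that of Gadd45b (-0.89, adjusted p = 0.0123 by limma), and Gadd45b in turn was 0.81 below Gadd45g (-0.81, adjusted p = 0.0187 by limma). Only the difference between Gadd45a and Gadd45g was past 2-fold and passed both limits, and the other two were short of 2-fold. A scaling factor for an array cancels in these differences. With the methods' t-test in place of limma their adjusted p-values were 0.136, 0.157 and 0.169, so that none passed. The deposited annotation gives all 3 genes the term for activation of MAPKKK activity, which only 8 of 14686 annotated genes carry, and also those for the p38 and JNK cascades.

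**Figure D2:**
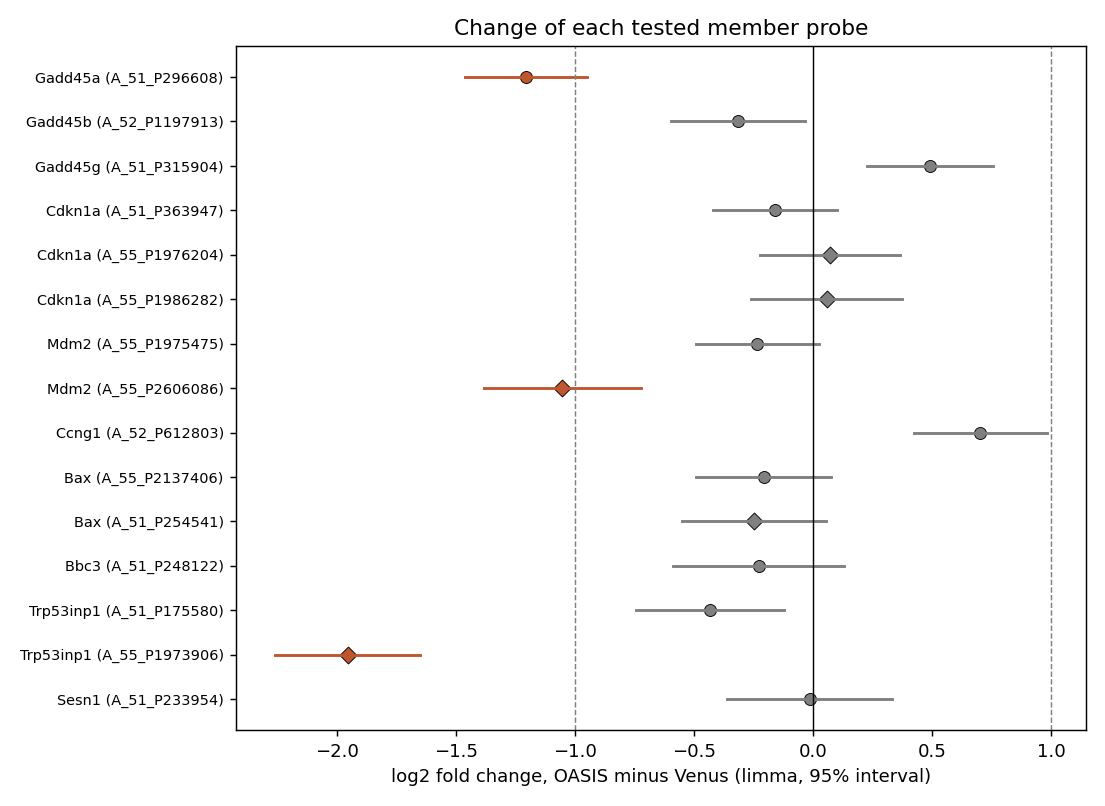
Log2 fold change of each tested probe, OASIS minus Venus, with its 95% interval from limma on the horizontal axis. Circles are the brightest probe of a gene, diamonds are its other probes, red marks those past both limits, and dashed lines mark 2-fold. Gadd45a at -1.21 is the only circle past the line, and the diamonds of Mdm2 and Trp53inp1 lie at -1.05 and -1.96.

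Mdm2, Ccng1 and Trp53inp1 act back on p53. MDM2 is the ubiquitin ligase that degrades p53, cyclin G1 recruits a phosphatase to MDM2, and TP53INP1 promotes the phosphorylation of p53 and takes part in autophagy. Ccng1, on chromosome 11 in band qA5, had normalized log2 intensities of 3.43 and 3.46 with Venus, against 4.08 and 4.21 with OASIS. It was the member furthest above 0, with a log2 fold change of 0.70 (adjusted p = 0.0169 by limma, standard error 0.11), or 1.63-fold, and an interval of the fold from 1.34 to 1.97. The fold thus lay below the 2-fold limit over its whole interval, and the groups were 0.62 apart at their nearest arrays. Under the alternatives its adjusted p lay between 0.00116 and 0.122.

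Mdm2, on chromosome 10 in band qD2, is read by 2 probes that are annotated to the same RefSeq transcript but to different Ensembl transcripts. Which transcript forms they read was not tested. The brighter one, A_55_P1975475, gave 7.34 and 7.33 with Venus and 7.08 and 7.12 with OASIS, a log2 fold change of -0.23 (adjusted p = 0.147 by limma, standard error 0.098). The dimmer one, A_55_P2606086, gave 2.69 and 2.59 with Venus and 1.69 and 1.48 with OASIS. Here the OASIS arrays were lower by 0.90 at the nearest, and the log2 fold change was -1.05 (adjusted p = 0.0106 by limma, standard error 0.13), or 2.08-fold lower. That second value stands close to the 2-fold limit. It no longer passed after normexp background correction (-0.98), with the methods' t-test (adjusted p = 0.109) or without OASIS replicate 2 (-0.95). The changes of the 2 probes differed by -0.82 (adjusted p = 0.0218 by limma, standard error 0.13), with an adjusted p of 0.182 by the methods' t-test. This difference was short of 2-fold.

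Trp53inp1, on chromosome 4 in band qA1, also has 2 probes with unequal changes. Its brighter probe, A_51_P175580, had 3.90 and 3.93 with Venus, against 3.38 and 3.59 with OASIS. The difference was -0.43 on the log2 scale (adjusted p = 0.0613 by limma, standard error 0.12), short of the fold limit. Its dimmer probe, A_55_P1973906, had 2.58 and 2.50 with Venus, against 0.67 and 0.50 with OASIS. This is a log2 fold change of -1.96 (adjusted p = 0.00341 by limma, standard error 0.12), a 3.88-fold fall, which passed the threshold under each of the 15 alternatives that follow single probes. The 2 changes differed by -1.52 (adjusted p = 0.0113 by limma, standard error 0.17). By the methods' t-test the adjusted p of this difference was 0.169. Such a difference past both limits was found for 10.5% of the 10811 pairs of a gene's brightest tested probe and another of its tested probes. Both probes are annotated to 1 RefSeq transcript but to different Ensembl transcripts, and which transcript forms they read was not tested.

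**Figure D3:**
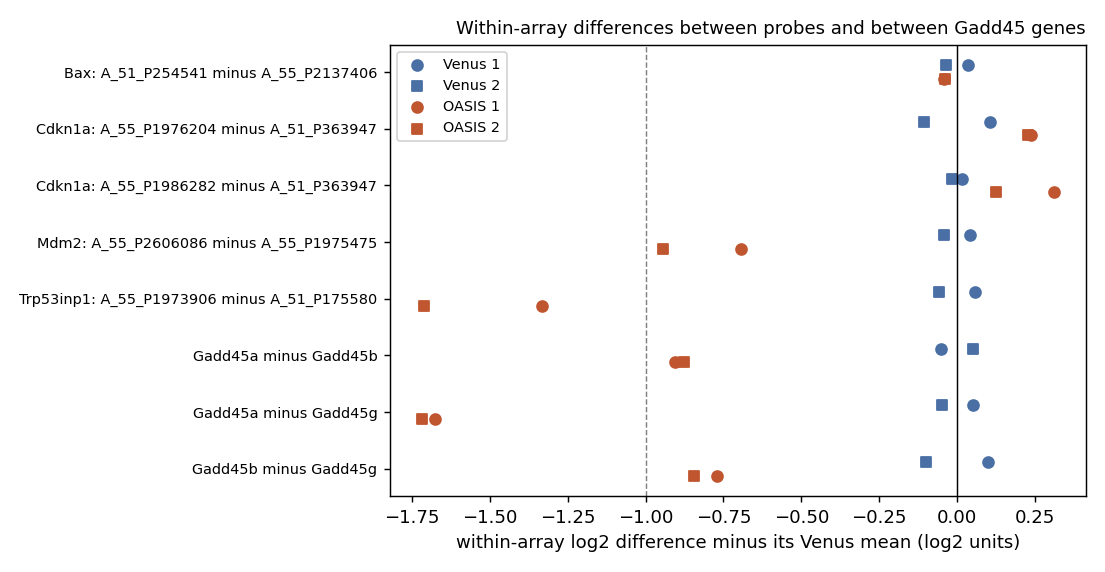
Within-array log2 difference between 2 probes of a gene, or between 2 Gadd45 genes, on each array, as the distance from its mean on the 2 Venus arrays (log2 units). Blue is Venus, red is OASIS, circles and squares are replicates 1 and 2, and the dashed line marks a 2-fold lower value. The Bax and Cdkn1a pairs lie close to the Venus mean or above it, whereas the Trp53inp1 pair and Gadd45a minus Gadd45g lie beyond the line on both OASIS arrays.

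Cdkn1a encodes p21, the inhibitor of cyclin-dependent kinases through which p53 arrests the cell cycle. It lies on chromosome 17 in band qA3.3 and has 3 probes, of which none passed either limit. The brightest, A_51_P363947, stood at 5.94 and 5.99 with Venus and at 5.82 and 5.79 with OASIS. Its log2 fold change was -0.16 (adjusted p = 0.286 by limma, standard error 0.099), and the interval of the fold, from 0.746 to 1.07, holds no 2-fold change. The other two are annotated to further transcripts of the gene and had log2 fold changes of 0.056 and 0.070, with groups that overlapped, and each changed sign when a single array was left out.

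Bax and Bbc3 carry the apoptotic arm. BAX opens the outer membrane of mitochondria, and BBC3 (PUMA) is a BH3-only protein that helps set it free to do so. The brighter Bax probe, A_55_P2137406 on chromosome 7 in band qB4, had 4.86 and 4.79 with Venus, against 4.55 and 4.68 with OASIS, and the other had 3.33 and 3.20 against 2.95 and 3.08. The OASIS arrays were lower in each case, by at least 0.11. The log2 fold changes were -0.21 and -0.25 (limma adjusted p = 0.221 and 0.180), so that neither passed. Bbc3, on chromosome 7 in band qA2, had 3.26 and 3.47 with Venus and 3.03 and 3.23 with OASIS, a log2 fold change of -0.23 (adjusted p = 0.275 by limma, standard error 0.14). The arrays of a group were almost as far apart as the groups.

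Sesn1 encodes sestrin 1, a stress protein that restrains mTORC1 and the build-up of reactive oxygen species. It lies on chromosome 10 in band qB2, and its probe had -0.077 and 0.19 with Venus and 0.0071 and 0.072 with OASIS. The groups overlapped, the log2 fold change was -0.015 (adjusted p = 0.946 by limma, standard error 0.13), and its sign changed without Venus replicate 2 and without OASIS replicate 1. The interval of the fold, 0.778 to 1.26, covers no 2-fold change.

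Trp53 itself, on which the targets depend, was not past the fold limit. Its probe had 1.85 and 1.79 with Venus, against 1.42 and 1.43 with OASIS, a log2 fold change of -0.39 (limma adjusted p = 0.0517). Mdm4, the partner of MDM2, had 0.027 by its brightest probe (adjusted p = 0.928 by limma), with none of its probes past the fold limit, and Cdkn2a, whose product ARF holds MDM2 back, had -0.18 (adjusted p = 0.419 by limma). Of the 27 regulators of p53 in the list, all were tested and 0 passed both limits by limma, where 8.07% of all genes did. An unadjusted p under 0.05 was reached by 10, beside 41% of all genes. An adjusted p under 0.1 was met by 7 (25.9%, beside 36.8% of all genes), 5 of them lower. By another probe 3 of the 27 passed, Cop1 and Trp53bp1 higher and Sirt1 lower, where 12.2% of all genes passed by any probe. The lowest by its brightest probe was Atm, the kinase that signals DNA breaks to p53, at -0.99 (adjusted p = 0.0151 by limma), named here after its value was seen, and its other probe had 0.12.

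The wider set of p53 targets was spread to both sides. Of 40 further targets, 39 were on the array and 38 were tested. None passed both limits by limma, where 8.07% of all genes did. By its brightest probe no gene of this list reached 2-fold, so that a t-test on the same values could not call one either. The same held for the further lists given here with no gene past both limits by the brightest probe. An unadjusted p under 0.05 was reached by 16, beside 41% of all genes, and 14 of the 38 (36.8%) had an adjusted p under 0.1, the same share as over all genes, 6 higher and 8 lower. Their median log2 fold change was -0.058, beside -0.056 over all genes. They ran from -0.81 for Pml, a scaffold of nuclear bodies, to 0.88 for Sfn, the 14-3-3σ protein that holds cells in G2, both named after their values were seen. The annotation in the deposited table gives the p53 signaling pathway term to 60 tested genes outside the members. In this list, taken from the annotation after the files were seen, 3 passed, which is 5% beside 8.07% of all genes, and 26 had an adjusted p under 0.1 (43.3%, beside 36.8%), 13 higher and 13 lower. The median was -0.10. The 3 that passed were higher, where 6.22% of all genes were. They were Gorab, a Golgi protein (1.58, limma adjusted p = 0.00499), Igfbp3, which binds insulin-like growth factors (1.07, limma adjusted p = 0.0495), and Ccne2, cyclin E2. Ccne2 did not stand well above background in the Venus group, and its 2 OASIS arrays lay far apart, at -4.18 and -5.43. It was at least 2.49-fold higher when the OASIS mean is set against the lowest signal well above background, but only at least 1.61-fold without OASIS replicate 1.

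**Figure D4:**
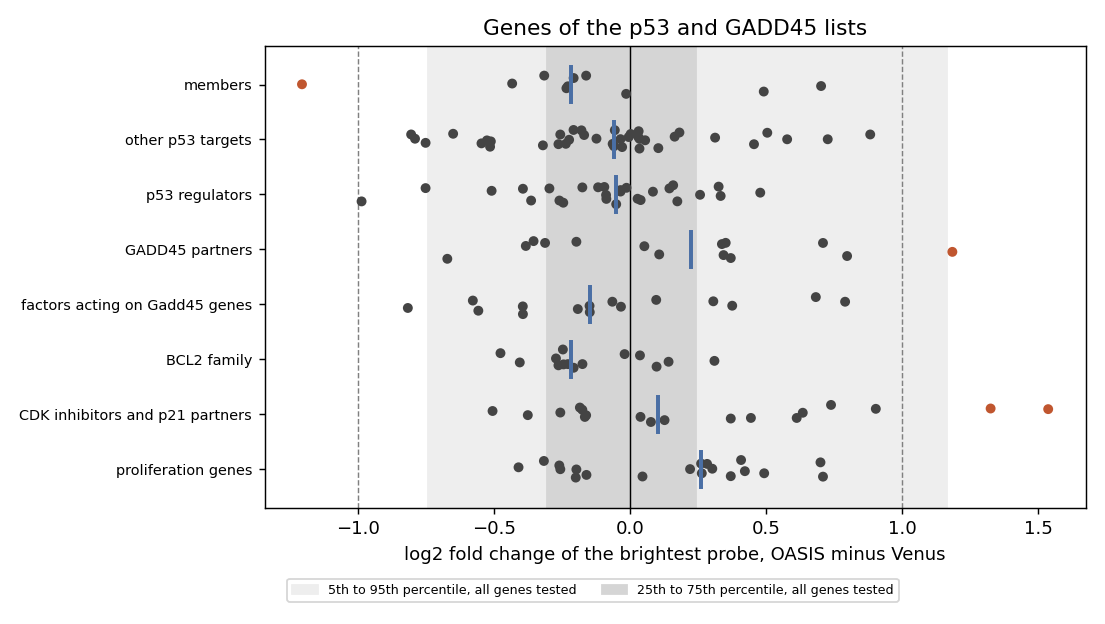
Log2 fold change of the brightest probe, OASIS minus Venus, for each tested gene of 8 lists. Each point is a gene, and some genes stand in more than 1 list, red points passed both limits, blue bars are medians, the shaded bands hold the 25th to 75th and the 5th to 95th percentile of all genes tested, and dashed lines mark 2-fold. The medians lie between -0.22 and 0.26, and only Gadd45a, at -1.21, passed on the lower side.

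The proteins that GADD45 binds and the kinases downstream are the partners of the family. All 14 genes of this list were tested and 1 passed both limits, Mapk9 (JNK2), which is 7.14% beside 8.07% of all genes. An adjusted p under 0.1 was met by 9 (64.3%, beside 36.8% of all genes), 5 higher and 4 lower, and an unadjusted p under 0.05 by 10, beside 41%. Mapk9 had a log2 fold change of 1.18 (adjusted p = 0.0120 by limma, standard error 0.15), but its other probe had -0.38 (limma adjusted p = 0.171). By any probe 2 of 14 passed both limits, where 12.2% of all genes did. The second was Mapk8, with 1.42 by another probe (limma adjusted p = 0.00540) and 0.80 by its brightest (limma adjusted p = 0.0122). The list's median was 0.22. Map3k4, the kinase that GADD45 proteins activate, had 2.69 and 2.76 with Venus, against 1.89 and 2.22 with OASIS, a log2 fold change of -0.67 (limma adjusted p = 0.0382) that did not reach 2-fold. Pcna stood at 0.37 (limma adjusted p = 0.101), and Cdk1 and Ccnb1, the mitotic kinase that GADD45A can inhibit and its cyclin, at 0.71 and -0.20, with overlapping groups.

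Among 16 factors known to act on Gadd45 genes, 15 were tested and 0 passed both limits by limma, where 8.07% of all genes did. An unadjusted p under 0.05 was reached by 8, beside 41% of all genes. An adjusted p under 0.1 was met by 7 (46.7%, beside 36.8% of all genes), 2 higher and 5 lower. By any of their probes 3 of 15 passed both limits, beside 12.2% of all genes. These were Foxo1 (1.41), Smad4 (1.46) and Myc (-1.01), each by a probe that was not its brightest. Among the 7, and named after their values were seen, was Myc, a proliferation factor (-0.82 by its brightest probe, limma adjusted p = 0.0143). The SMAD factors of TGF-β signalling had -0.58 for Smad2 (limma adjusted p = 0.0220) and 0.68 for Smad4 (limma adjusted p = 0.0164), also by the brightest probe. The stress-induced Atf3 had -0.56 (limma adjusted p = 0.0285). Atf4, a CREB/ATF factor of the integrated stress response, had a log2 fold change of 0.096 (adjusted p = 0.538 by limma), the forkhead factor Foxo3 -0.15 (0.315) and Egr1 -0.19 (0.687). The median of this list was -0.15. The paralogues of the members numbered 9 and were all tested. None passed by limma with its brightest probe, where 8.07% of all genes did. An unadjusted p under 0.05 was reached by 5, beside 41% of all genes, and an adjusted p under 0.1 by 5 (55.6%, beside 36.8%). The median of the paralogues was -0.020. By another probe 2 of 9 passed, Ccng2 lower and Cdkn1b higher, where 12.2% of all genes passed by any probe.

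Bax and Bbc3 also belong to the BCL2 family, and Cdkn1a to the inhibitors of cyclin-dependent kinases. Of the BCL2 family, 16 of 18 genes were on the array and 14 were tested. None passed by limma with its brightest probe, where 8.07% of all genes did. By another probe 1 of 14 passed, Bcl2l11, where 12.2% of all genes passed by any probe. An unadjusted p under 0.05 was reached by 3, beside 41% of all genes, and an adjusted p under 0.1 by 2 (14.3%, beside 36.8%). The median was -0.22. In the list of CDK inhibitors and p21 partners, 18 genes were tested and 2 were higher, Ccne2, given above, and Cdkn2c (p18), with 0.28 and 0.31 with Venus, against 1.84 and 1.40 with OASIS and a log2 fold change of 1.33 (adjusted p = 0.0127 by limma, standard error 0.17). These 2 are 11.1% of the list, beside 8.07% of all genes called. An adjusted p under 0.1 was met by 7 (38.9%, beside 36.8%) and an unadjusted p under 0.05 by 8, beside 41% of all genes. The list had a median of 0.10. Of 19 proliferation genes, such as Mki67 and Top2a, 0 passed by limma, where 8.07% of all genes did. An unadjusted p under 0.05 was reached by 2 of them, beside 41% of all genes. The groups did not overlap for 3 of them, where 70.9% of all genes did not, and the median was 0.26. All 19 were higher on array 2 than on array 1 in both groups, and the part of this in the overlap was not tested.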

How the data were processed

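Per the file headers, the deposited scanner files give each spot an intensity after background correction by Agilent's Feature Extraction software (version 12.1.0.3), and marks for outliers and for signals well above background (coded 0 or 1). The authors also deposited scaled intensities, which are the same values times 1 factor per array, and a detection score per spot. Symbols, bands and annotation terms come from the same source. The array files name build mm9, no genome of which was used, so that coordinates are not given.

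Log2 intensities were taken relative to the 75th percentile of the array without control and outlier spots, with the mean over spots that share a probe. Testing a probe required that at least 0.5 of its spots be well above background on both arrays of a group. The groups were fitted over 31590 probes with limma 3.58.1 (lmFit, eBayes), with Benjamini-Hochberg adjustment, in R 4.3.3. Files were read with data.table, version 1.17.8, and the fit was tested on simulated data. A gene stands for its brightest probe. With 2 arrays per group, an exact two-sided permutation test cannot give p below 0.333, so the number of arrays limits the precision.

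The members and lists were chosen with earlier results of these data known. Every member is named, with the genes of each list past the threshold, up to 4 in each direction, and fixed partners. The lists are further p53 targets, p53 regulators, GADD45 partners, factors acting on Gadd45 genes, the BCL2 family, CDK inhibitors, paralogues, proliferation genes, podocyte markers and markers of other kidney cells. The alternatives were other scalings, background correction, filters and tests, the authors' values, a replicate block and leaving out each array.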

Additional observations from a re-analysis of the deposited data

How the results depend on the processing

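The counts of members that were higher (0) and of further p53 targets past the threshold (0) were the same under all 16 alternatives, and that of members that were lower (1) under all but one. Settings that keep the folds could not alter the counts of 0. By the brightest probe no member was 2-fold higher, and no further target reached 2-fold in either direction. With the mean of a gene's probes it was 2, since Trp53inp1 joined Gadd45a, which the alternative's own construction explains. Over single probes and differences between probes, 336 of 345 comparisons kept their direction and their side of the threshold, 5 no longer passed and 4 changed sign. The 4 were values near 0. Without 1 array, the log2 fold change lay between -0.011 and 0.15 for Cdkn1a probe A_55_P1976204, between -0.053 and 0.16 for A_55_P1986282 and between -0.15 and 0.12 for Sesn1. The cause was not tested. Over all genes, 1316 passed, 790 (653 higher, 137 lower) after normexp background correction and 400 (334 higher, 66 lower) by the t-test of the methods. Without OASIS replicate 2, 474 genes were lower in place of 302. Fits without 1 array take the spread of the lone one from the opposite group.

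Both groups have samples numbered 1 and 2, and the labels do not say that a number marks a shared day or culture. The deviations of same-numbered arrays had a correlation of 0.26 over probes, and all 19 proliferation genes were higher on array 2 than on array 1 in both groups, a hint from the data only. With the replicate block, 1345 genes passed and Gadd45a kept -1.21 (limma adjusted p = 0.00997). The block changed no call of a member. Signals not well above background, as for the second Gadd45a probe, limit what can be said of dim transcripts.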

Other observations

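Several genes of the p53 and GADD45 lists had a probe past both limits that was not their brightest. The count, made with the values known, covers 15 genes of the lists and of the pathway term, Mdm2 and Trp53inp1 among them, with 7 lower and 8 higher. They are 15.3% of the 98 listed genes that had several tested probes and a brightest probe short of the limits. Over all genes the share was 10.2%, or 679 of 6638. In 4 of the 15 the brightest probe had the opposite sign. Bcl2l11, which encodes the BH3-only protein BIM, had a log2 fold change of -2.25 by one probe (limma adjusted p = 0.00370) and 0.14 by its brightest (limma adjusted p = 0.526). For Sirt1, a deacetylase that acts on p53, the values were -1.16 and 0.16. Cop1, a ubiquitin ligase for p53, had 1.39 and -0.26, and Adgrb1 had 1.03 and -0.17. Ccng2, the paralogue of Ccng1, had -1.10 by one probe and -0.58 by its brightest. Which transcripts these probes read was not tested.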
